A study of Homo sapiens with 6 samples.

Results

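The transcripts described here are 9 genes widely used as markers of mesenchymal cells: *VIM*, *TAGLN*, *S100A4*, *FN1*, *TGFBI*, *SPARC*, *TNC*, *POSTN* and *LOX*. They were chosen by symbol from the 20347 gene symbols of the deposited expression table, and all 9 had a row in it. Of the 9, 7 reached a mean of at least 10 normalized counts over the 6 libraries and were tested together with all other genes that did so, 12773 in all. *TNC* and *POSTN* did not reach that mean and are given by their reads.

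RNA-seq was performed in PaTu8988t, an established human cell line from pancreatic ductal adenocarcinoma (PDAC). The Control group held 3 replicates of cells that had received the Lenti-CRISPR V2 plasmid with an unspecific guide RNA, and the SAMD1 KO group held 3 clonally independent clones made with the same plasmid and guides against *SAMD1*. The KO clones had gone through CRISPR/Cas9 editing and puromycin selection of single clones, so each KO library is 1 clone. Whether the Control replicates came from 1 clone or from a pool is not given in the sources used here. The libraries held from 35589477 to 45172216 reads on genes. *SAMD1* itself, which encodes a CpG island-binding repressor, was lower in the KO clones (log2 fold change −1.32, limma adjusted p = 0.000724), with reads remaining in all 3.

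Epithelial-mesenchymal transition is the programme by which epithelial cells loosen their junctions, rebuild their cytoskeleton around vimentin and actin bundles, and deposit and remodel extracellular matrix. Carcinoma cells can run only parts of it, so that some markers of the programme are made while others are not. The question addressed by the comparison is how expression in this programme differs when SAMD1 is deleted.

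The sample titles name the cell line, PaTu8988t, but no cell type. Markers of the cell types that a culture could hold were therefore read. Of 5 epithelial markers, *KRT8* lay between 32902 and 57041 normalized counts, *KRT18* between 29200 and 50795 and *EPCAM* between 422 and 626, whereas *CDH1*, encoding E-cadherin, lay between 24.0 and 45.8 and *KRT19* was at 0 in all 6 libraries. *KRT18* was called higher in SAMD1 KO cells (log2 fold change 0.52, limma adjusted p = 0.0598), and the call was lost in 5 of the 6 fits without 1 library. Of 8 fibroblast markers, *DCN* and *LUM* had no read in any library, *COL1A2* had at most 1 read, and the sum of all 8 was 167 to 170.2 normalized counts in Control and 165 to 459 in SAMD1 KO libraries. Only *PDGFRA*, the alpha receptor for platelet-derived growth factor, was called higher among them (log2 fold change 1.90, limma adjusted p = 0.0139). It had 4, 4 and 3 reads in Control and 24, 17 and 17 in KO clones 1 to 3. With a Control mean of 3.98 normalized counts, it reached the minimum mean of 10 only through the KO libraries, so this call rests on few reads. None of the 3 endothelial and none of the 3 leukocyte markers was called by limma at the cut-off given below.

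The cut-off was a log2 fold change beyond 0.5 with a p below 0.01, the limits that the study used, and the p was taken here as unadjusted. At this cut-off limma called 1 of the 7 tested markers lower in SAMD1 KO cells, *TAGLN*, and 0 higher. Among all tested genes 7.85% were called, 5.77% higher and 2.08% lower. *S100A4* and *VIM* were the only tested markers with a positive log2 fold change, and edgeR and DESeq2, run on the whole reads, each called 1 marker higher, *S100A4*. An unadjusted limma p below 0.05 was reached by 4 of the 7, *TAGLN* and *TGFBI* downwards and *S100A4* and *VIM* upwards, against 29.6% of all tested genes. The same 4 had no overlap between Control and KO libraries, against 37.8% of all tested genes. An adjusted p below 0.05 was reached by 1 of the 7, against 13% of all tested genes. The median log2 fold change of the 7 was −0.20, and that of all tested genes was −0.0059. The tested markers therefore did not move in 1 direction in the KO clones.

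**Figure D1:**
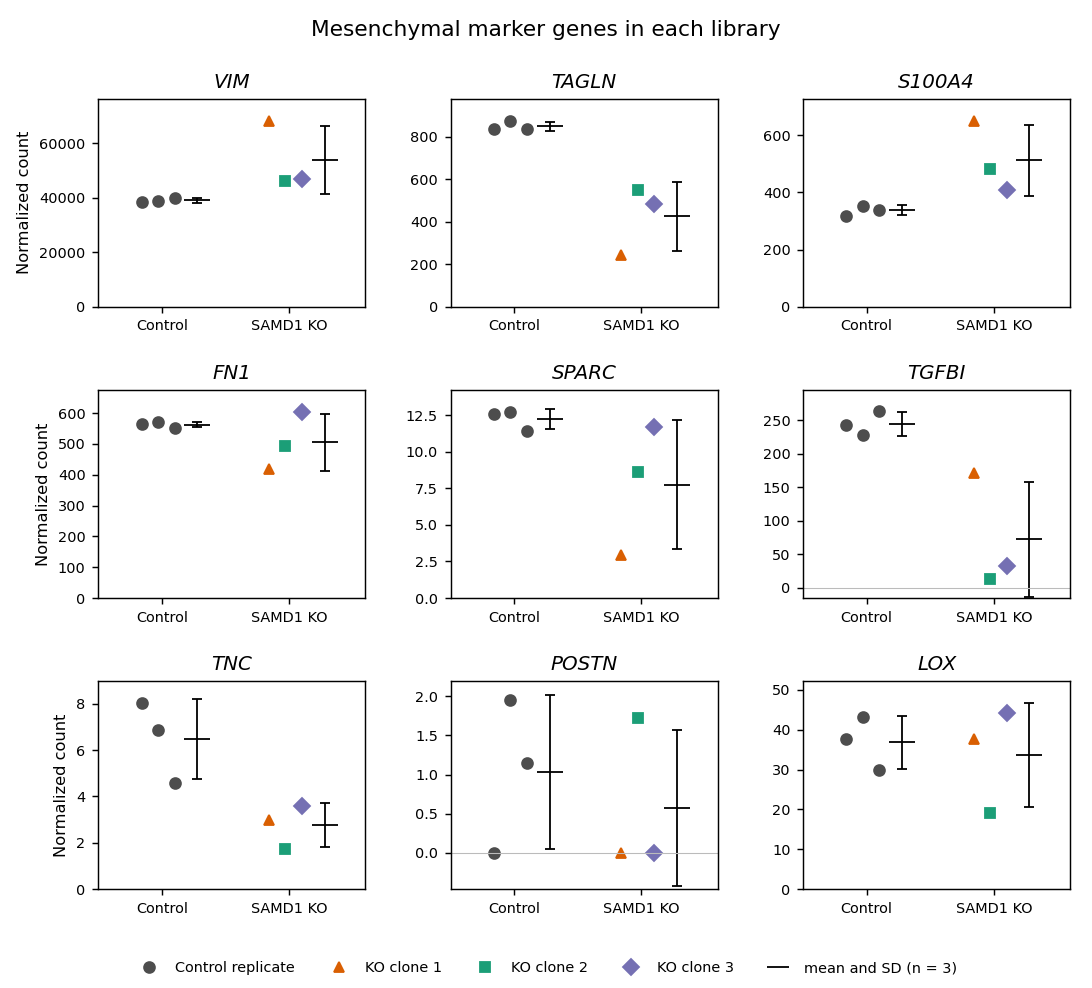
Normalized counts (vertical axes, 1 scale per gene) of the 9 marker genes in the 3 Control replicates (circles) and in SAMD1 KO clones 1, 2 and 3 (triangle, square, diamond). Horizontal marks with bars are the mean and SD (n = 3). The KO bars of *TGFBI*, whose clones differ widely, and of *POSTN*, with at most 2 reads in a library, reach below 0. *VIM* and *S100A4* lie higher in every clone than in any Control replicate, *TAGLN* and *TGFBI* lie lower, and clone 1 is the most distant for *VIM*, *S100A4* and *TAGLN*.

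SAMD1 binds unmethylated CpG islands through its winged helix domain, and GCGC is its known preferred motif. The 250 bases before the first listed RefSeq start per gene were therefore read for GCGC and, as a common core promoter motif, for TATAAA. The former is its own reverse complement, the latter was searched on both strands, and overlapping matches were counted separately. A promoter was listed for 8 of the 9 genes. Only 1 was read for each, and any other start of the same gene was left out. The shares over all promoters are not limited in this way. For *S100A4* the stretch read lies inside the annotated gene span given below. GCGC was found in 2 of the 8, *FN1* with 4 matches and *TGFBI* with 3, while 53.4% of all 35116 RefSeq promoters of this length held it. TATAAA was found in 2 of the 8, *S100A4* with 1 match and *POSTN* with 2, while 10.7% of all promoters held it. The number of CG steps was 32 in *FN1*, 20 in *TGFBI*, 13 in *LOX*, 12 in *TNC*, 8 in *VIM*, 7 each in *S100A4* and *SPARC* and 1 in *POSTN*, against a median of 11 over all promoters. The sequences below are shown to set the 2 promoters with GCGC beside the stretches read for the 2 genes with positive fold changes, which lacked it. *LOX*, *SPARC*, *TNC* and *POSTN* lacked it as well, and the log2 fold changes of *LOX* and *SPARC* were negative. They are from RefSeq on GRCh38.p14, written 5′ to 3′ on the strand of the gene, with each match to either motif in capitals. *FN1* is at chr2:215436069-215436318 (minus strand), *TGFBI* at chr5:136028738-136028987 (plus strand), *VIM* at chr10:17227991-17228240 (plus strand) and *S100A4* at chr1:153545807-153546056 (minus strand).
FN1: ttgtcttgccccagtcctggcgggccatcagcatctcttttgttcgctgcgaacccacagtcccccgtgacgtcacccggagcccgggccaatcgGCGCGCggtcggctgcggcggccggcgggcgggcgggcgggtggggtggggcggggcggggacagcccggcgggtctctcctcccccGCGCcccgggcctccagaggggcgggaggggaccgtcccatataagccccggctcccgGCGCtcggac
TGFBI: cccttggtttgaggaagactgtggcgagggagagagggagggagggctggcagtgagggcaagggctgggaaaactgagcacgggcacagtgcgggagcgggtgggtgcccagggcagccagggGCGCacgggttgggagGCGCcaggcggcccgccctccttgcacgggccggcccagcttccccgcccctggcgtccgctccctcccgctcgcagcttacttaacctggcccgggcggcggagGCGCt
VIM: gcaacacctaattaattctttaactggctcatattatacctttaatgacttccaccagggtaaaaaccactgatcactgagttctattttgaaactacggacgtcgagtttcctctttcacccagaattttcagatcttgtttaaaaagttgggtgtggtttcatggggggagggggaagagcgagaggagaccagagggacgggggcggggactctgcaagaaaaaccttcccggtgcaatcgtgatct
S100A4: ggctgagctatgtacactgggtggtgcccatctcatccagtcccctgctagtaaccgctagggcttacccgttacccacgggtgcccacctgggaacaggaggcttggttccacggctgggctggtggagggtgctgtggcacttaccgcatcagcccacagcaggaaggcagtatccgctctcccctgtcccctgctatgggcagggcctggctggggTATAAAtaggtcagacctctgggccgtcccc
A match describes letters only, and binding of SAMD1 at these promoters was not analysed here.

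The intracellular markers are described first. *VIM* encodes vimentin, the intermediate filament protein of mesenchymal cells (chromosome 10, 17228241 to 17237593, GRCh38). Normalized counts were 38276, 38799 and 39902 in Control, while KO clones 1 to 3 had 68094, 46225 and 46792. Every clone lay above every replicate, and clone 1 stood well above the other clones. Control cells averaged 38992 ± 830.3 and the clones 53704 ± 12466 (SD, n = 3 per group). The log2 fold change was 0.44 (95% interval 0.10 to 0.78, limma adjusted p = 0.0938), so *VIM* did not pass the cut-off. Clone 1 held 1.75 times the Control mean, clone 2 held 1.19 times and clone 3 held 1.20 times. As a share of all reads on genes, *VIM* took 0.0937% to 0.0979% in the Control libraries and 0.168%, 0.118% and 0.117% in clones 1 to 3.

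The call of *VIM* turned on which clone was counted. Without clone 2 its log2 fold change was 0.53 and it passed the cut-off (limma adjusted p = 0.0623). Without clone 1 the log2 fold change was 0.25, under the cut-off for size, while the limma adjusted p of the 2 remaining, closely matching clones was 0.0176. DESeq2 gave a log2 fold change of 0.46 and an adjusted p of 0.0154.

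*S100A4* encodes a small calcium-binding protein that binds myosin and is also known as fibroblast-specific protein (chromosome 1, 153543613 to 153550136). The Control replicates had 319, 353 and 340.2 normalized counts, and KO clones 1 to 3 had 649.7, 481 and 407. All clones lay above all replicates, in the order clone 1, clone 2, clone 3. Control cells averaged 338 ± 17.2 and the clones 513 ± 124 (SD, n = 3 per group). The log2 fold change of 0.58 (SE 0.17, unadjusted p = 0.0103, limma adjusted p = 0.0656) missed the cut-off on the p-value. Without clone 1 the log2 fold change was 0.39, under the cut-off for size as well (limma adjusted p = 0.0517). It passed without clone 3 (log2 fold change 0.73, limma adjusted p = 0.0213) and, with all libraries, in edgeR (0.61, adjusted p = 0.06) and DESeq2 (0.60, adjusted p = 0.0125). Its annotated gene overlaps *S100A3* on the same strand, so a part of the reads may be shared, and *S100A3* had 131 ± 9.43 normalized counts in Control and 123 ± 28.5 in KO cells. Of the fibroblast markers, the collagen gene *COL3A1* had 111 ± 2.34 normalized counts in Control and 279.8, 398 and 130.4 in clones 1 to 3 (limma adjusted p = 0.0881). It was thus highest in clone 2, not in clone 1 as *VIM* and *S100A4* were. *PDGFRA*, with 23.7, 14.7 and 15.3 normalized counts in clones 1 to 3, was highest in clone 1 as they were. *COL1A1* had 50.6 ± 1.91 in Control and 21.8, 41.5 and 15.3 in the clones (limma adjusted p = 0.098), and *DCN* and *LUM* were at 0. In bulk libraries, more cells with a transcript and more of it per cell cannot be told apart.

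*TAGLN* encodes transgelin, an actin-binding protein of smooth muscle and activated fibroblasts, and was the only tested marker called lower (chromosome 11, 117199370 to 117207464). Control replicates had 835, 873 and 837 normalized counts, and KO clones 1 to 3 had 241, 549 and 484. All clones lay below all replicates, and clone 1 was the lowest. The group means were 848 ± 21.1 and 425 ± 162 (SD, n = 3 per group), and the log2 fold change was −1.08 (SE 0.28, 95% interval −1.74 to −0.42, limma adjusted p = 0.0468). Clone 1 kept 0.284 of the Control mean, clone 2 kept 0.648 and clone 3 kept 0.570. *TAGLN* was called under each of the 10 settings that kept all libraries and with any 1 clone left out, where the log2 fold change lay between −1.31 and −0.72. It lost the call without Control replicate 1, 2 or 3, where the log2 fold change was −1.09, −1.06 and −1.09 and the limma adjusted p was 0.154, 0.156 and 0.150. *PCSK7* overlaps it on the opposite strand, as *SRFBP1* does *LOX* and the antisense gene VIM-AS1 does *VIM*, and the strand setting of the counting is not given in the sources used here.

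**Figure D2:**
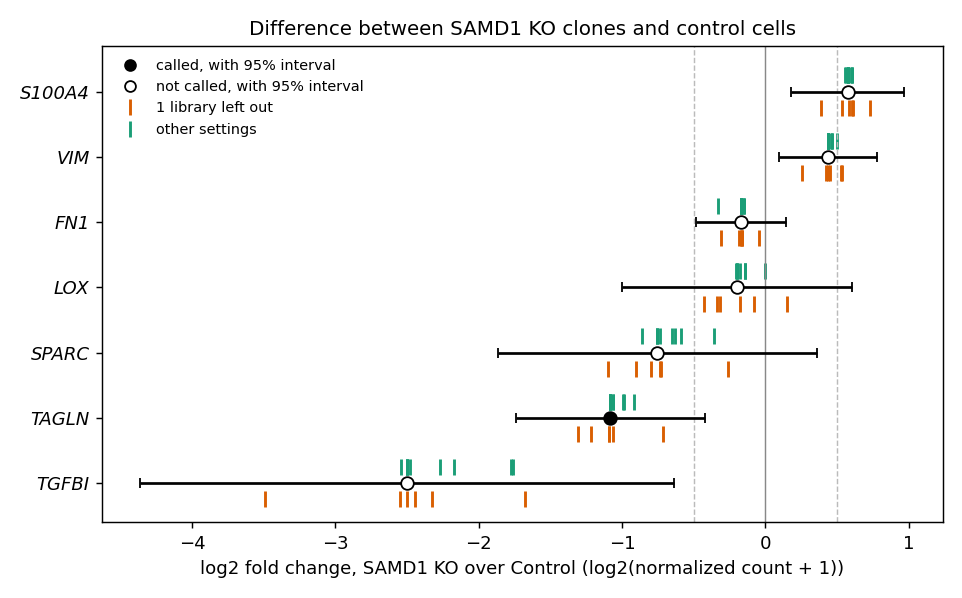
Log2 fold change of SAMD1 KO over Control for the 7 tested markers (horizontal axis; dashed lines at −0.5 and 0.5). Circles with bars are the limma value and its 95% interval, filled where the cut-off was passed, orange ticks are fits without 1 library and green ticks are the other settings. *TAGLN* is the filled point at −1.08, and *TGFBI* has the widest interval, from −4.36 to −0.63.

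The matrix markers gave no call. *TGFBI* encodes a fasciclin-domain matrix protein that links collagens to integrins and is induced by transforming growth factor beta (chromosome 5, 136028988 to 136063818). Normalized counts of 244, 228 and 263 in Control stood against 171, 12.96 and 33.3 in KO clones 1 to 3. Clones 2 and 3 were far below the replicates, with 15 and 37 reads, while clone 1 was close under them, with 173 reads. Control cells averaged 245 ± 17.8 and the clones 72.4 ± 86.0 (SD, n = 3 per group), which gave a log2 fold change of −2.50 (SE 0.80, limma adjusted p = 0.0839). This was the largest absolute log2 fold change among the 7 tested markers, and it missed the cut-off on the p-value, with clones that differed widely in size. Clone 1 kept 0.698 of the Control mean, clone 2 kept 0.0529 and clone 3 kept 0.136. Without clone 1 the log2 fold change was −3.49 and *TGFBI* was called lower (limma adjusted p = 0.00233), and without clone 2 it was −1.68 and not called (limma adjusted p = 0.121). edgeR and DESeq2, which compare mean counts rather than mean log values, gave −1.77 (adjusted p = 0.163) and −1.76 (adjusted p = 0.223).

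*FN1* encodes fibronectin, the adhesive glycoprotein on which cells spread and migrate (chromosome 2, 215360440 to 215436073). Control replicates had 566, 570.4 and 552 normalized counts, and KO clones 1 to 3 had 419, 494 and 603. Clones 1 and 2 lay below the replicates and clone 3 above them, so the groups overlapped. The group means were 563 ± 9.59 and 505 ± 92.2 (SD, n = 3 per group), a difference of −0.17 on the log2 scale (95% interval −0.48 to 0.14, limma adjusted p = 0.431). Without clone 1 the log2 fold change was −0.045 (limma adjusted p = 0.792) and without clone 3 it was −0.31 (limma adjusted p = 0.0828), so its size rested on which clones were counted.

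*LOX* encodes lysyl oxidase, the enzyme that cross-links collagen and elastin (chromosome 5, 122063195 to 122078413). The Control replicates had 37.7, 43.05 and 29.8 normalized counts, and KO clones 1 to 3 had 37.6, 19.0 and 44.1. Only clone 2 lay below the replicates. The log2 fold change was −0.20 (95% interval −1.002 to 0.61, limma adjusted p = 0.740), and without clone 2 it was 0.15 (limma adjusted p = 0.713).

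*SPARC* encodes osteonectin, a collagen-binding matricellular protein (chromosome 5, 151661096 to 151686975). It had few reads, with 11, 13 and 10 reads in Control and 3, 10 and 13 in KO clones 1 to 3, which are 12.6, 12.7 and 11.5 against 2.97, 8.64 and 11.7 normalized counts. Clone 3 lay among the replicates and clone 1 had the fewest reads. The log2 fold change was −0.75 (95% interval −1.87 to 0.36, limma adjusted p = 0.333), and it was −0.26 without clone 1.

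*TNC*, encoding the anti-adhesive matrix protein tenascin C (chromosome 9, 115019575 to 115118207), had 7, 7 and 4 reads in Control and 3, 2 and 4 reads in the KO clones. With no filter on low counts its log2 fold change was −0.996 (SE 0.37, limma adjusted p = 0.142). *POSTN*, encoding periostin, a relative of the *TGFBI* product (chromosome 13, 37562583 to 37598844), had 0, 2 and 1 reads in Control and 0, 2 and 0 reads in the KO clones. No fold change is given for *POSTN*. Both genes were thus at or near 0 in these cells with and without SAMD1.

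An exact permutation test of each marker, two-sided over the 6 libraries, cannot give a p below 0.1 with 3 against 3. It gave 0.1 for *VIM*, *S100A4*, *TAGLN*, *TGFBI* and *TNC*, 0.2 for *SPARC*, 0.4 for *FN1*, 0.7 for *POSTN* and 0.8 for *LOX* (exact permutation p, n = 3 per group).

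The clones differed from each other more than the Control replicates did. On the log2 scale the SD among the KO clones was above that among the Control replicates for all 7 tested markers, as for 82.8% of all tested genes. The SD among the clones was 1.84 for *TGFBI*, higher than that of 99.8% of the tested genes, and 0.88 for *SPARC* (97.9%), 0.64 for *TAGLN* (95.01%) and 0.62 for *LOX* (94.6%). In clones 1 to 3 *SPARC* had only 3, 10 and 13 reads and *LOX* 38, 22 and 49, so their SD holds counting error too. With means of 12.3 in Control and 7.77 in KO cells, *SPARC* reached the minimum mean of 10 only through the Control libraries. The SD among the clones was 0.34 for *S100A4* (82.3%), 0.32 for *VIM* (80.1%) and 0.26 for *FN1* (73.4%). Clone 1 was the most distant from the Control mean for 5 of the 7, *VIM*, *S100A4*, *TAGLN*, *FN1* and *SPARC*, and clone 2 for the other two, *TGFBI* and *LOX*. The same clone that had the most *VIM* and *S100A4* therefore had the least *TAGLN*, *FN1* and *SPARC*. The difference from the Control mean had 1 sign in all 3 clones for 5 of the 7 and mixed signs for *FN1* and *LOX*. Neither this count nor that of the most distant clone was taken over all tested genes, so neither sets the markers apart from other genes.

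The 3 markers *LOX*, *TGFBI* and *SPARC* lie on chromosome 5, where clone 2 stood apart. Over the 587 tested genes of chromosome 5, the median log2 difference from the Control mean was −0.04 in clone 1, −0.52 in clone 2 and −0.02 in clone 3. On chromosomes 1, 2, 10 and 11, which hold the other tested markers, these medians lay between −0.09 and 0.10 in every clone. Each marker was therefore set beside the median of its 40 nearest tested genes. In clone 2, *TGFBI* differed from Control by −4.14 and its neighbours by −0.59, *LOX* by −0.90 and its neighbours by −0.57, and *SPARC* by −0.46 and its neighbours by −0.57. *TGFBI* in clone 3 differed by −2.84, with neighbours at −0.06. In clone 1, *SPARC* differed by −1.74, with neighbours at 0.0063. Relative to its neighbours, *LOX* in clone 2 was thus at −0.33 and *SPARC* at 0.12, whereas *TGFBI* was at −3.54 in clone 2 and at −2.78 in clone 3.

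Away from chromosome 5 the medians of the neighbours lay between −0.22 and 0.19. In clones 1 to 3, *VIM* differed by 0.80, 0.25 and 0.26 with neighbours between −0.07 and −0.04, and *S100A4* by 0.94, 0.51 and 0.27 with neighbours between −0.02 and 0.07. *TAGLN* differed by −1.81, −0.63 and −0.81 with neighbours between −0.22 and −0.13. *FN1* differed by −0.42, −0.19 and 0.10 with neighbours between 0.14 and 0.19. With the regional medians subtracted, *TAGLN* kept its call (log2 fold change −0.92, limma adjusted p = 0.0421), *TGFBI* (−2.27, limma adjusted p = 0.0525) and *S100A4* (0.55, limma adjusted p = 0.0418) passed the cut-off, and *LOX* was at 0.0016. *VIM* was at 0.498 (limma adjusted p = 0.0464), just under the cut-off for size, and *FN1* moved from −0.17 to −0.33 (limma adjusted p = 0.108).

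**Figure D3:**
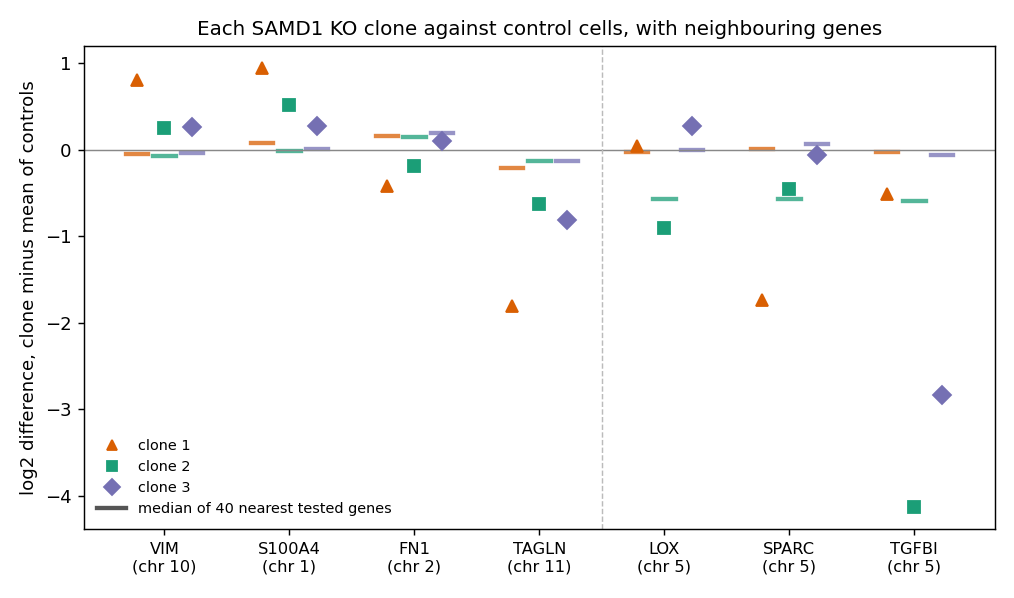
Log2 difference from the mean of the Control replicates for each of the 7 tested markers (symbols, clones 1 to 3) beside the median of the 40 nearest tested genes in the same clone (short lines of the same color). The dashed line separates the 3 genes of chromosome 5, where the neighbours of clone 2 lie between −0.59 and −0.57. *TGFBI* in clones 2 and 3 lies well under its neighbours.

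Set per length, as TPM from the whole reads and the canonical GENCODE 44 transcript (reads per base of transcript, scaled to the same sum in each library), the markers covered a wide range in Control cells. *VIM* had 1112 ± 31.6 TPM (SD, n = 3). *S100A4* followed with 40.4 ± 2.39 TPM, *TAGLN* with 13.8 ± 0.42, *TGFBI* with 5.55 ± 0.41 and *FN1* with 4.12 ± 0.07. *LOX* was at 0.446 ± 0.081 TPM, *SPARC* at 0.218 ± 0.012, *TNC* at 0.047 ± 0.012 and *POSTN* at 0.019 ± 0.018. The Control replicates of neighbours in this order did not overlap except for *TNC* and *POSTN*. In KO cells the order of *TGFBI* (1.65 ± 1.95 TPM) and *FN1* (3.77 ± 0.69) was not resolved, since their libraries overlapped. The canonical *TAGLN* transcript has 3786 bases and the median of its 7 coding transcripts is 1227, and with median lengths *TAGLN* stood above *S100A4* (42.5 against 37.8 TPM in Control cells). *VIM* thus carried most of this expression, and the matrix markers other than *TGFBI* and *FN1* were below 1 TPM with canonical lengths, although *LOX* and *SPARC* were at 1.38 and 1.31 TPM with median lengths.

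The 3 genes whose profile over the 6 libraries was most like that of *TGFBI*, out of 11452 with a mean of at least 50 normalized counts, were *CSRP1*, *IFIT2* and *ENAH*. Likeness was the root mean square of the difference of log2 values from the Control mean, which was 0.89, 0.92 and 0.92, so that no gene followed *TGFBI* closely. *CSRP1*, a LIM-domain protein of actin bundles, had 1140 to 1174 normalized counts in Control and 1243, 131 and 568 in KO clones 1 to 3. *ENAH*, a regulator of actin filament growth, had 1742 to 1863 in Control and 2819, 336 and 446 in the clones. Both were low in clones 2 and 3 and not in clone 1. *IFIT2*, an interferon-induced gene, was low in every clone, with 133, 79.5 and 116 against 417 to 487 in Control.

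Genes related to each marker were read from lists of relatives, partners and receptors. Of 3 tested intermediate filament partners of vimentin, 1 was called higher, *SYNM*, which encodes synemin. It had 716 to 757 normalized counts in Control and 1864, 1225 and 1010.1 in clones 1 to 3, a log2 fold change of 0.85 (limma adjusted p = 0.0363), and the call was lost without any 1 Control replicate. As for *VIM*, clone 1 was the highest. None of the 4 tested fibronectin-linked and elastic fibre genes and none of the 2 tested fasciclin and tenascin relatives was called by limma. None of the 3 tested relatives of *SPARC* was called either, although *FSTL1*, chosen after its values were seen, was below Control in every clone (20691 to 20877 against 14792 to 15351 normalized counts, log2 fold change −0.46, limma adjusted p = 0.00161) and missed the cut-off on size.

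Of 7 tested genes for other matricellular proteins, 1 was called lower. This was *CCN2*, encoding connective tissue growth factor, with 26989 to 29242 normalized counts in Control and 14490, 18300 and 17994 in clones 1 to 3 (log2 fold change −0.74, limma adjusted p = 0.00416). All clones lay below all replicates, and the call held without any 1 library. Of 12 tested *LOX* relatives and collagen-modifying enzymes, 2 were called higher and 1 lower. *TGM2*, encoding the cross-linking enzyme transglutaminase 2, rose (0.71, limma adjusted p = 0.00265), as did *LOXL4*, a lysyl oxidase family member named after its values were seen (0.56, limma adjusted p = 0.0422). The *LOXL4* call was lost without any 1 Control replicate and without clone 2. *PLOD2*, encoding a lysyl hydroxylase of collagen, fell (−1.0001, limma adjusted p = 0.0169).

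Of 13 tested contractile and actin-binding genes, 1 was called higher and 1 lower, and their median log2 fold change was −0.21. *CALD1*, encoding caldesmon, fell too (−0.53, limma adjusted p = 0.00399), though without clone 1 or clone 3 its log2 fold change stayed within 0.5 and the call was lost. *MYLK*, encoding myosin light chain kinase, rose (0.55, limma adjusted p = 0.0238, not called without clone 1 or clone 2). *ACTA2*, the smooth muscle actin often read beside *TAGLN*, had 405 to 418 normalized counts in Control and 342, 368 and 328 in the clones (−0.25, limma adjusted p = 0.116). Of 18 relatives of *S100A4*, 8 were tested and 0 called by limma, with a median log2 fold change of 0.05. Among these, *S100A11* (0.44, limma adjusted p = 0.0298) and *S100A16* (0.45, limma adjusted p = 0.00527), named after their values were seen, missed the cut-off on size.

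Of 9 tested receptors of the matrix proteins and of S100A4, limma called 3 higher and 0 lower. The shares over all tested genes were 5.77% higher and 2.08% lower. *ITGB5*, an integrin beta subunit that pairs with the alpha V subunit, had 5525 to 5773 normalized counts in Control and 11620, 9243 and 9274 in clones 1 to 3 (log2 fold change 0.82, limma adjusted p = 0.00255). *ITGB3*, another partner of alpha V, had 59.7 to 68.7 in Control and 319, 137 and 143 in the clones (1.51, limma adjusted p = 0.0248). Clone 1 was the highest for both, and both calls held without any 1 library. *ITGB8*, named after its values were seen, was called too (1.71, limma adjusted p = 0.0382), but not without Control replicate 2 or 3. It had only 12, 13 and 8 reads in Control and 28, 89 and 35 in clones 1 to 3, so this call rests on few reads. Clone 2 was the highest for *ITGB8*. *ITGAV*, the shared alpha subunit, had a log2 fold change of 0.36 (limma adjusted p = 0.0155), under the cut-off for size, and *ITGB1* one of 0.04 (limma adjusted p = 0.745). *FN1*, whose product is a ligand of alpha V integrins, did not pass the test, as given above.

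**Figure D4:**
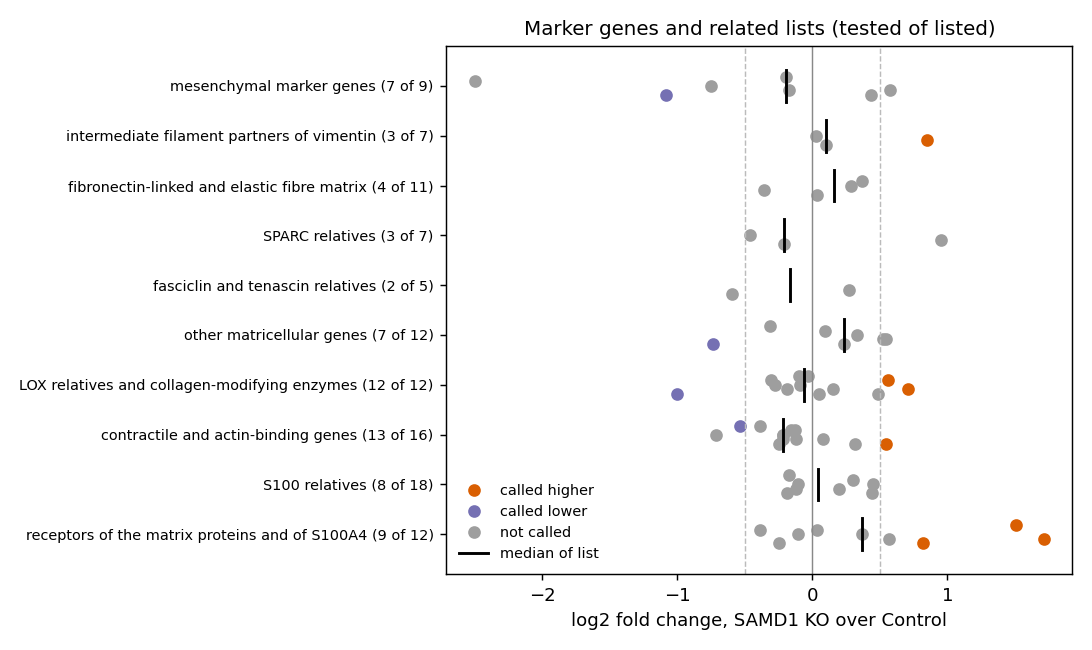
Log2 fold change of SAMD1 KO over Control (horizontal axis) for the tested genes of the marker set and of 9 related lists, with the number tested of those listed after each name. Orange points were called higher, violet points lower and grey points not, and black lines are the medians. The markers reach from −2.50 to 0.58 with 1 call, and the receptors have 3 calls, all higher. Among all tested genes 5.77% were called higher and 2.08% lower.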

How the data were processed

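Total RNA of PaTu8988t cells was sequenced in 6 libraries of a stranded mRNA kit. The authors aligned the reads with RNA-STAR to the human transcriptome (GenCode 43), per the study's methods, and the submitters' processing notes name featureCounts, DESeq2 and hg38. The strand setting of the counting is not given in the sources used here. The deposited signal is a normalized count per gene symbol, the reads divided by 1 size factor per library (0.873 to 1.16). Dividing a library's values by their smallest step gave whole numbers for 100% of them (tolerance 0.05), and these whole reads were used where reads are given. On these reads edgeR called 779 genes higher and 247 lower. The authors also deposited their DESeq2 comparison (fold changes, standard errors and p-values), which was not used. No sample column was left out (0).

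Groups were taken from the labels. The main test was limma 3.58.1 (R 4.3.3, lmFit and eBayes with trend) on log2(normalized count + 1) for genes with a mean of at least 10, with Benjamini-Hochberg adjustment over all 12773 genes. The pseudocount of 1 understates the change of low genes. Single genes also had an exact permutation test (SciPy 1.17.1). Nothing in the labels says that the Control replicates are separate cultures, so p-values measure the spread between these libraries, which may be technical in part. Depths were 35589477 to 45172216 reads. Among the markers, counting error matters mainly for *SPARC*, *TNC*, *POSTN* and *LOX*, and it also bears on other genes with few reads, such as *PDGFRA*. Alternatives were pseudocounts of 0.1 and 10, no filter or a mean of at least 50, 75th percentile scaling, a replicate block, fits without each library, edgeR 4.0.16, DESeq2 1.42.0, an adjusted p in the cut-off, and subtraction of the median of the 40 nearest tested genes. Positions were matched to GENCODE 44 (GRCh38) for 98.5% of tested genes. The test code was checked on simulated data.

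Genes named are the 9 markers, *SAMD1*, up to 2 called genes of each related list with the smallest p, and the 3 genes most like the marker with the largest absolute log2 fold change. Genes outside this rule are given as such or as markers of cell types. *CDH1*, *KRT8*, *KRT18*, *KRT19*, *EPCAM*, *DCN*, *LUM*, *COL1A1*, *COL1A2*, *COL3A1*, *PDGFRA*, *CDH5*, *S100A3*, *ACTA2*, *ITGAV* and *ITGB1* were named after their values were seen. The members and lists were chosen with earlier results of these data known.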

Additional observations from a re-analysis of the deposited data

How the results depend on the processing

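Over the 7 tested markers and their alternatives, 95 of 110 values kept their direction and side of the cut-off, 10 newly passed it, 3 no longer passed it and 2 turned. The alternative with an adjusted p in the cut-off reuses the main fit, so no direction could turn there. The number of markers called higher was 0 in the main limma fit. It was 1 (*S100A4*) in DESeq2 and edgeR, and in limma with scaling by the 75th percentile, no filter on low values or regional shifts removed. The number called lower was 1 and became 2 (*TAGLN* and *TGFBI*) with regional shifts removed or with the replicate block. With 1 library left out, 0 to 1 markers were higher and 0 to 2 lower, and 568 to 862 of all tested genes were higher and 180 to 370 lower. *LOX* turned from −0.20 to 0.0016 with regional shifts removed and to 0.15 without KO clone 2, and lay between −0.43 and 0.15 with 1 library left out. *FN1* lay between −0.31 and −0.045 with 1 library left out. Replicate numbers are shared by the groups, but the labels do not say that they pair the samples. Same-numbered libraries had correlations of their deviations of 0.039, 0.134 and 0.032, and differently numbered ones lay between −0.074 and 0.036. Only Control replicate 3 correlated better with another number, 0.036 with KO clone 1 against 0.032 with KO clone 3. These small values do not settle whether the libraries pair. The replicate block gave 725 genes higher and 259 lower, against 737 and 266 without it. With an adjusted p below 0.05 in the cut-off these were 682 and 239, and *TAGLN* was again the marker called. With all libraries kept, the adjusted p of *TAGLN* was above 0.05 in edgeR (0.0525) and in limma with 75th percentile scaling (0.0556). A mean of at least 50 leaves out *SPARC* and *LOX*, so they have no value there. Reads were fewest for *SPARC*, *TNC* and *POSTN*, at most 13, 7 and 2 in a library.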

Other observations

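*CDH5*, encoding VE-cadherin and read here as an endothelial marker, was singled out after its values were seen. It had 33.1 ± 4.28 normalized counts in Control (SD, n = 3) and 2.97, 17.3 and 11.7 in SAMD1 KO clones 1 to 3, so that every clone lay below every replicate. It did not pass the cut-off (log2 fold change −1.80, limma adjusted p = 0.0748).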
